A study of Homo sapiens with 6 samples.

Results

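The expression of 10 genes of the serous ovarian lineage was followed in OVCAR3, a line of high-grade serous ovarian adenocarcinoma (HGSOC), after inhibition of the transcriptional kinases CDK12 and CDK13. They were chosen by name, as genes known to mark or specify this lineage, and the rule uses no measured value. Earlier results of these data were known when the choice was made. The list holds 6 transcription factors (PAX8, SOX17, MECOM, WT1, EMX2 and ESR1) and 4 surface or secreted proteins (MUC16, MSLN, FOLR1 and WFDC2). All 10 were found among the 47577 loci of the table, each as a locus of its own. The 3 DMSO libraries came from OVCAR3 exposed to the solvent and the 3 THZ531 libraries from OVCAR3 exposed to THZ531, a covalent inhibitor of CDK12 and CDK13, at 200 nM, and both exposures lasted 6 h. The submitters describe the 3 libraries of each group as biological repeats. The titles and group labels name THZ531, while the protocol text names THZ1, a related inhibitor, at the same dose. The compound is called THZ531 here, as in the study. OVCAR3 is a single line from a single tumor, so the libraries do not sample the variety of serous carcinomas. Because the libraries are bulk RNA, fewer cells with a transcript and less of it per cell cannot be told apart.

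The serous lineage is thought to derive from the secretory epithelium of the fallopian tube. PAX8, a paired box transcription factor, is kept on in these cells and in the tumors, together with SOX17, WT1, EMX2 and MECOM. MUC16 carries the CA125 antigen and binds mesothelin (MSLN), FOLR1 takes up folate, and WFDC2 is secreted as HE4, and all of them serve as tumor markers or drug targets in the clinic. CDK12 and CDK13 phosphorylate the tail of RNA polymerase II, and their loss is known to favor the use of polyadenylation sites inside introns, which cuts transcripts short.

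The libraries held 53054048 to 70986130 reads on genes, with fewer in each THZ531 library than in any DMSO library. Values are given as normalized read counts, that is, the reads of a locus divided by a size factor per library. A size factor was between 0.794 and 1.26, so 1 normalized read stands for about 1 counted read. Of all loci, 17568 reached 10 normalized reads in 3 or more libraries and entered the test. All 10 members did so. Mitochondrial genes took 8.50% to 10.1% of the reads and their shares overlapped between the groups. A member was called lower or higher at a fold change of at least 1.5 with an unadjusted p of at most 0.05. The adjusted p-values are from limma with the Benjamini-Hochberg method over all 17568 loci, and fold changes are on the log2(value + 1) scale, which understates the change of weakly expressed genes.

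PAX8 was the member that was called lower, WFDC2 was the member that was called higher, and the other 8 members were not called in either direction. Over all loci tested, 23.9% were called lower and 15.7% higher, 39.5% in either direction, so the members' 1 and 1 of 10 were not above the background. The median log2 fold change was 0.17 over the 10 members and -0.01 over all loci. It was 0.00 over the 6 transcription factors and 0.30 over the 4 surface or secreted proteins. With no fold threshold, 6 members had an adjusted p of at most 0.05 (limma), 2 lower and 4 higher, where 68.6% of all loci did. The groups did not overlap for 7 members, 5 with the higher values in THZ531 and 2 with the higher values in DMSO. This was the case for 71.7% of all loci, 36% with THZ531 higher and 35.7% with THZ531 lower.

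**Figure D1:**
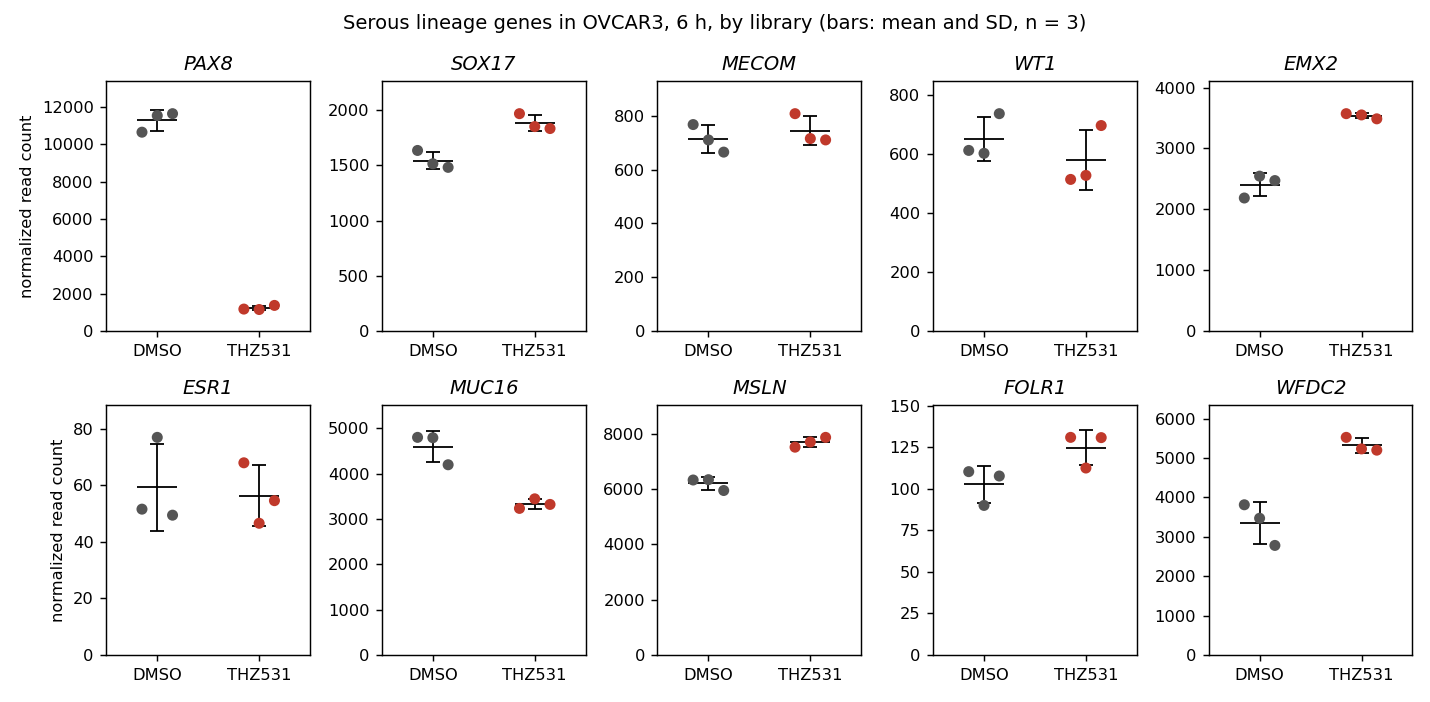
Normalized read counts of the 10 members in each of the 3 DMSO and 3 THZ531 libraries, each panel on a linear axis from 0, with bars for the mean and SD. PAX8 falls from 10645 to 11636 in the DMSO libraries to 1161 to 1380 in the THZ531 libraries, while the values of MECOM, WT1 and ESR1 overlap between the groups.

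PAX8 (GSHG0025799, hg38 chr2:113214517-113278921, minus strand) had 10645, 11535 and 11636 normalized reads in the DMSO libraries and 1184, 1161 and 1380 in the THZ531 libraries. The groups lay far apart, and within each group the highest library exceeded the lowest by 1.09 times in DMSO and by 1.19 times in THZ531. The mean fell from 11272 ± 545 to 1241.5 ± 121 (SD, n = 3), a 9.08-fold decrease. On the log2 scale PAX8 changed by -3.18 with a 95% interval from -3.31 to -3.05 (adjusted p = 4.6e-15 in limma). Among the 15278 tested loci with a symbol, 86 had a lower log2 fold change. The call was the same with every library left out in turn, with values between -3.26 and -3.14.

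The table also lists a locus without a symbol (GSHG0025800) that lies wholly inside PAX8, at chr2:113274136-113275706 on hg38. It is 1571 nucleotides long and starts 3215 nucleotides from the PAX8 start. In the MANE transcript of PAX8, which has 12 exons, it falls in intron 2, the longest intron of the gene with 31450 nucleotides (chr2:113246920-113278369), and covers intron positions 2664 to 4234. The DMSO libraries gave it 121, 180.0 and 169 normalized reads and the THZ531 libraries 1449.7, 1538 and 1419.8. Every THZ531 value was above every DMSO value, in the direction opposite to PAX8. Its log2 fold change was 3.24, with a 95% interval from 2.97 to 3.51 (adjusted p = 4.8e-12, limma). In DMSO the locus held 1.13% to 1.56% as many reads as PAX8, and in THZ531 it held 103% to 133% as many, with no correction for length. The log2 ratio of the locus to PAX8 differed by 6.43 between the groups, from -6.18 ± 0.24 to 0.25 ± 0.19 (SD, n = 3). A two-sided exact permutation test gave p = 0.1, which is as low as 3 values per group can reach. Which transcript the reads of the locus belong to was not tested, since the table holds 1 value per locus.

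The splice site that opens the intron and the AATAAA motifs inside the nested locus are shown because the reads of the locus lie between this splice site and the rest of the gene. They are written in the direction of PAX8 transcription, from hg38. In the first sequence (chr2:113278345-113278384) the capitals mark the first 6 nucleotides of the intron, after 15 nucleotides of exon 2. In the other 3 the capitals mark AATAAA, the core letters of the polyadenylation signal, with 20 nucleotides on either side (chr2:113275429-113275474, chr2:113275012-113275057 and chr2:113274469-113274514).
PAX8 exon 2 to intron 2: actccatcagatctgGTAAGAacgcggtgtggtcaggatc
AATAAA at intron position 2916: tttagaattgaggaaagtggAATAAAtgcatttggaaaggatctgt
AATAAA at intron position 3333: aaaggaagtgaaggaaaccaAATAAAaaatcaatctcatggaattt
AATAAA at intron position 3876: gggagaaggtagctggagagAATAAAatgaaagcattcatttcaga
Another 3 motifs lie between the splice site and the locus, at intron positions 1772, 1776 and 2042, so the locus begins beyond them. The study places a cryptic polyadenylation site at the motif nearest to the splice site, with more reads before it after treatment. That motif lies outside the locus and is not among the sequences printed above. The bounds of the locus come from the gene annotation, so they do not show where the reads in the intron begin or end. The last motif inside the locus ends 353 nucleotides before the end of the locus. The letters AATAAA, read on the PAX8 strand, occur 19 times in the intron. They are common: 74.2% of 153090 windows of the same length on chromosome 2 hold them on the same strand, and 29.9% hold them at least 3 times, as the nested locus does. Of 20 such windows that tile intron 2, 9 hold the motif and 4 hold it at least 3 times. The locus has a GC content of 36.4% and the whole intron of 47.6%.

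**Figure D2:**
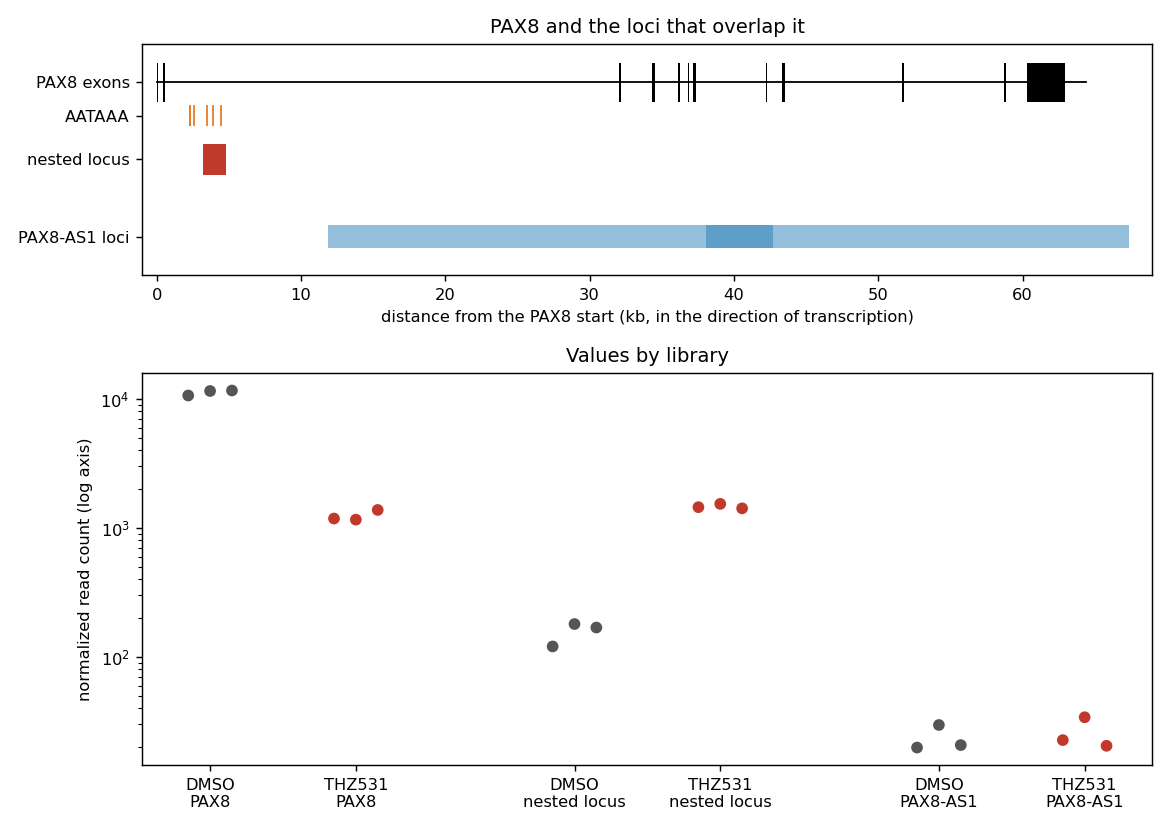
Upper panel, exons of the PAX8 MANE transcript, the 6 AATAAA motifs up to the end of the nested locus, the nested locus and the loci of PAX8-AS1, by distance in kb from the PAX8 start. Lower panel, normalized read counts on a log axis of PAX8, the nested locus and the tested PAX8-AS1 locus in each library, in which PAX8 and the nested locus converge at 1161 to 1538 in THZ531 while PAX8-AS1 stays at 19.8 to 34.1 in both groups.

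PAX8-AS1, a noncoding gene antisense to PAX8, is listed as 2 loci. The locus that was tested (GSHG0047413) had 19.8, 29.7 and 20.7 normalized reads in DMSO and 22.7, 34.1 and 20.5 in THZ531. The groups overlapped. Its log2 fold change was 0.12, with a 95% interval from -0.70 to 0.94, a range that includes a 1.5-fold change in either direction. The other PAX8-AS1 locus had at most 9 reads in any library and was below the minimum. The library kit keeps the strand, but the strand setting of the counting is not given in the sources used here, so reads of an antisense pair could be shared between its members.

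The nearest tested genes with a symbol on either side of PAX8 were not called. PSD4, at 5120 bp on the side of the PAX8 end, had a log2 fold change of -0.20 (adjusted p = 0.098), and CBWD2, at 158769 bp on the other side, had 0.27 (adjusted p = 0.0013, both from limma). CBWD2 is a member of a family of near-identical copies, so its count is uncertain. The genes whose pattern over the 6 libraries lay nearest to that of PAX8, by the Euclidean distance of the centered log2 values among 11838 genes, were FAM86C2P at 0.31, SLFN5 at 0.32 and NPIPA5 at 0.33. SLFN5, a Schlafen family gene, had a log2 fold change of -3.21, which is near that of PAX8 because the genes were picked by this distance. FAM86C2P and NPIPA5 belong to multigene families, and reads may be split among the copies.

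SOX17 (chr8:54457935-54460892), a SRY-box factor that is expressed with PAX8 in this lineage, had 1635, 1514 and 1482 normalized reads in DMSO and 1967, 1851 and 1833 in THZ531. All THZ531 libraries were above all DMSO libraries. The difference of 0.29 on the log2 scale had a 95% interval from 0.16 to 0.41 (adjusted p = 3.9e-04, limma), below the fold used for calling.

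MECOM (chr3:169083507-169663725) encodes a zinc finger factor of the EVI1 locus and is the longest of the members, with a span of 580219 bp and a first intron of 281811 nucleotides. It had 767, 709.8 and 665 normalized reads in DMSO and 807, 715 and 709.9 in THZ531. The groups overlapped, and the log2 fold change of 0.06 had a 95% interval from -0.12 to 0.24 (adjusted p = 0.54, limma). A fall of the size seen in PAX8 lies outside this interval. MECOM-AS1 and the 2 loci without a symbol inside MECOM had no reads in any library.

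EMX2 (chr10:117542445-117549546), a homeobox factor of urogenital development, had 2186, 2545 and 2473 normalized reads in DMSO and 3571, 3549.9 and 3486 in THZ531. The THZ531 libraries were all higher and close to each other. EMX2 rose by 0.56 on the log2 scale, with a 95% interval from 0.44 to 0.68 (adjusted p = 2.0e-07, limma). The ratio of the means was 1.47, just below the fold of 1.5, and EMX2 was called higher, at 0.60, with DMSO replicate 2 left out.

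EMX2OS, the antisense noncoding gene that overlaps EMX2 by 2624 bp at its start, went the other way. It had 400.1, 402 and 444 normalized reads in DMSO and 149, 128 and 95.6 in THZ531. No values overlapped, and the mean fell 3.34-fold. The log2 fold change was -1.75, with a 95% interval from -2.09 to -1.42 (adjusted p = 6.6e-08, limma). Relative to EMX2, EMX2OS went from 15.8% to 18.3% in the DMSO libraries to 2.74% to 4.16% in the THZ531 libraries. Their log2 ratio differed by -2.32 (two-sided exact permutation test, p = 0.1, the smallest possible).

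WT1 (chr11:32387775-32435541), a zinc finger factor used as a nuclear marker of serous tumors, had 612, 602 and 736 normalized reads in DMSO and 514, 527 and 696 in THZ531. The groups overlapped, with replicate 3 the highest in both. The log2 fold change was -0.17, with a 95% interval from -0.42 to 0.07 (adjusted p = 0.19, limma). WT1-AS, which overlaps the start of WT1 by 1474 bp on the opposite strand, had 111, 98.4 and 133 normalized reads in DMSO and 52.9, 29.6 and 43.2 in THZ531. WT1-AS fell in every THZ531 library below the lowest DMSO library. Its log2 fold change was -1.45, with a 95% interval from -2.01 to -0.90 (adjusted p = 1.3e-04, limma). The log2 ratio of WT1-AS to WT1 differed by -1.28 between the groups (two-sided exact permutation test, p = 0.1, the smallest possible).

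The sequence before the WT1 start is shown because RefSeq has this antisense pair begin there: the first start it lists for WT1-AS lies 21 bases inside WT1. The counted WT1-AS locus, from another annotation, reaches 1474 bp into WT1, so it covers the sequence shown. The 250 bases before the WT1 start are given from RefSeq (GRCh38.p14, chr11:32435540-32435789, minus strand), in the direction of WT1 transcription, with the SP1 box (GGGCGG, here as CCGCCC on the other strand) in capitals.
WT1 promoter: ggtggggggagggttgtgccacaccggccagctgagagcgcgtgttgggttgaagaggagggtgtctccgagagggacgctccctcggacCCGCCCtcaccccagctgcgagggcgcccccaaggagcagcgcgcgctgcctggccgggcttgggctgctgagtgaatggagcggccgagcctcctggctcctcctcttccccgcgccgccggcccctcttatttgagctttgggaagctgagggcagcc
This window has a GC content of 70.4% and holds 1 SP1 box. GGGCGG occurs on either strand in 42.6% of the 35116 RefSeq windows of the same length. Neither CCAAT nor TATAAA was found in it on either strand, letters that 32.0% and 10.7% of the windows hold. RefSeq promoters were matched for 7 of the 10 members.

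**Figure D3:**
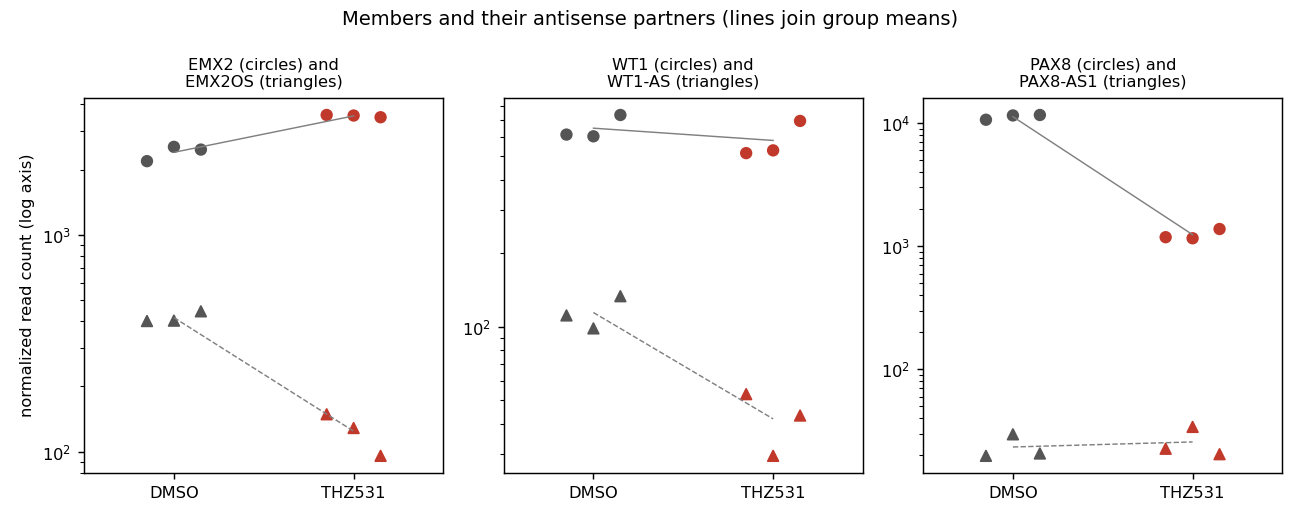
Normalized read counts (log axis) of EMX2, WT1 and PAX8 (circles) and of their antisense partners EMX2OS, WT1-AS and PAX8-AS1 (triangles) in each DMSO and THZ531 library, with lines between group means. EMX2OS and WT1-AS fall in THZ531 with no overlap, while EMX2 is higher and WT1 overlaps between the groups, and for PAX8 it is the sense gene that falls.

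ESR1 (chr6:151656691-152129611), the estrogen receptor alpha, was the weakest member, with 41 to 83 counted reads in a library. It had 51.6, 77.0 and 49.5 normalized reads in DMSO and 68.0, 46.6 and 54.6 in THZ531. The groups overlapped fully, and the log2 fold change of -0.06 had a wide 95% interval, from -0.64 to 0.52 (adjusted p = 0.86, limma), an interval that includes a 1.5-fold fall. SYNE1, a nuclear envelope gene that overlaps the end of ESR1 by 7928 bp, was not called either (-0.25, 95% interval from -1.04 to 0.54). Of 20 genes listed as targets of the estrogen receptor, 15 were tested, with a median log2 fold change of 0.10 against -0.01 over all loci. Of these, 1 was called lower and 1 higher, where 23.9% and 15.7% of all loci were. The gene called lower was XBP1, a factor of the unfolded protein response (-0.62), and the gene called higher was the keratin KRT13 (1.22). PGR, the progesterone receptor and a target used as a sign of receptor activity, had no reads in any library.

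MUC16 (chr19:8848844-9065724), the mucin that carries CA125, had 4802, 4794 and 4198 normalized reads in DMSO and 3234, 3445 and 3322 in THZ531. The highest THZ531 library was below the lowest DMSO library. The mean in THZ531 was 72.5% of that in DMSO, and the log2 fold change of -0.46 had a 95% interval from -0.58 to -0.35 (adjusted p = 1.3e-06, limma), below the fold used for calling. It was the other member, besides PAX8, with lower values in every THZ531 library. Its transcript has 84 exons and 43816 exonic nucleotides, the most among the members.

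MSLN (chr16:760734-768865), which encodes mesothelin, had 6331, 6342 and 5951 normalized reads in DMSO and 7519, 7707 and 7874 in THZ531. All THZ531 values were higher. The log2 fold change was 0.31, with a 95% interval from 0.23 to 0.40 (adjusted p = 4.1e-06, limma), and MSLN was not called.

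FOLR1 (chr11:72189556-72196322), the folate receptor alpha, had 110.4, 90.0 and 108 normalized reads in DMSO and 131, 113 and 131 in THZ531. The groups did not overlap but lay close together, and the log2 fold change of 0.28 had a 95% interval from -0.11 to 0.67 (adjusted p = 0.19, limma). Another 13 listed genes handle folate, pair with the surface members or belong to their families. Of the 10 tested, 2 were called lower and 1 higher, with a median of 0.03. Over all loci 23.9% were called lower and 15.7% higher, with a median of -0.01. SLC46A1, the proton-coupled folate transporter and 1 of the lower genes, fell by 2.81 on the log2 scale. LGALS3, a galectin, rose by 0.66.

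WFDC2 (chr20:45469753-45481532), a secreted protein of the whey acidic protein family, had 3811, 3468.5 and 2779 normalized reads in DMSO and 5522, 5229 and 5197 in THZ531. The THZ531 libraries were all higher, and DMSO replicate 3 was the lowest of the 6. The mean went from 3353 ± 525 to 5316 ± 179 (SD, n = 3), a ratio of 1.59, and the log2 fold change of 0.68 had a 95% interval from 0.50 to 0.85 (adjusted p = 1.6e-06, limma). The call rested on DMSO replicate 3, since without it the log2 fold change was 0.55 and WFDC2 was not called. The nearest tested genes with a symbol on either side were PIGT at 43508 bp and WFDC3 at 292675 bp. Their log2 fold changes were 0.28 and 0.06 and they were not called. WFDC3 was weak, with 14 to 51 counted reads in a library and a wide 95% interval, from -0.83 to 0.94.

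The sign of the estimate depended on the scaling of the libraries for several members. The sum of the normalized values was larger in THZ531 than in DMSO, and scaling every library to the same total shifted each log2 fold change by -0.24, while scaling to RPL34, a ribosomal protein gene that the study used as the reference in its qPCR, shifted it by -0.49. Under these and the upper quartile scaling, the estimates of PAX8 (-3.43 and -3.68), MUC16, WT1 and ESR1 were negative. Those of EMX2 and WFDC2 were positive. Some of these signs came with no detected change. Unadjusted p-values of ESR1 were 0.77 (upper quartile), 0.29 (same total) and 0.067 (RPL34, all from limma). They were 0.10 for WT1 at the upper quartile and 0.50 for EMX2 under RPL34 (limma). MUC16 was called lower at the same total and under RPL34, at -0.70 and -0.95, and WT1 under RPL34, at -0.67. WFDC2 was called under neither, at 0.43 and 0.18. At the same total the estimates of SOX17, MSLN and FOLR1 were positive, with unadjusted p of 0.47, 0.14 and 0.83 (limma). Under RPL34 they were negative, with FOLR1 at an unadjusted p of 0.31 (limma). The estimate of MECOM was negative under both. The background was 32% of loci called lower and 9.38% called higher at the same total, and 42.8% and 6.14% under RPL34.

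**Figure D4:**
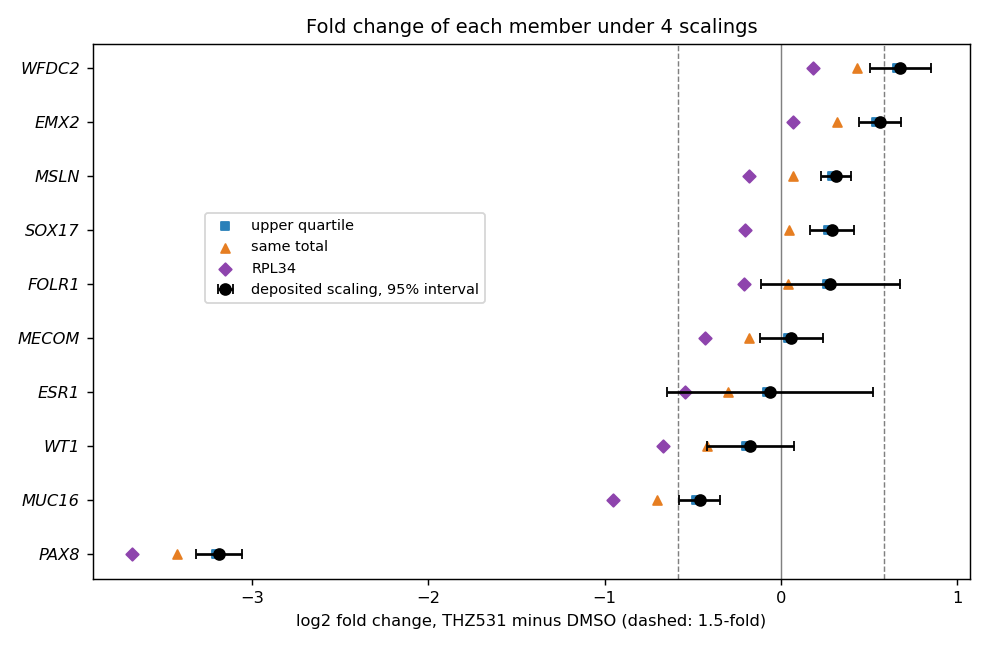
Log2 fold change of each member, THZ531 minus DMSO, with the deposited scaling (circles, bars for the 95% interval) and with upper quartile, same total and RPL34 scaling, and dashed lines at 1.5-fold. PAX8 lies between -3.68 and -3.18 under all 4, whereas SOX17, MSLN and FOLR1 are below 0 under RPL34 and MECOM is below 0 under RPL34 and at the same total.

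Levels were compared between members per kb of exonic length, using 1 canonical transcript per gene. In DMSO the order of normalized reads per kb was WFDC2 (4901 to 6721 over the libraries), MSLN (2709 to 2887), PAX8 (2625 to 2869), EMX2 (843 to 981), SOX17 (632 to 697), WT1 (199 to 243), MECOM (122 to 140.4), FOLR1 (96.8 to 119), MUC16 (95.8 to 109.6) and ESR1 (7.82 to 12.2). MSLN and PAX8 overlapped, as did FOLR1 and MUC16. PAX8 was above 90.4% of the 14770 genes with a length in DMSO and above 55.9% in THZ531. With 286 to 340 normalized reads per kb in THZ531, it dropped from the third to the fifth place among the members, behind EMX2 (1343 to 1376) and SOX17 (781 to 839). The order of the other 9 members was the same in both groups, although MECOM and FOLR1 overlapped in THZ531.

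The fall of PAX8 was also large for a gene of its span. PAX8 spans 64405 bp, and among the 4047 tested genes of 50 to 200 kb the median log2 fold change was -0.02 and 24 genes, PAX8 included, were at or below -3.18. MECOM, ESR1 and MUC16 are longer than 200 kb, a class of 1059 genes with a median of -0.10 and 25.6% called lower, and none of these members was called. SOX17, EMX2, MSLN and FOLR1 are shorter than 10 kb, where the median was 0.07 and 20.7% were called lower and 17.0% higher. WT1 and WFDC2 lie in the class of 10 to 50 kb, with a median of -0.05, 24.7% called lower and 11.2% higher.

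**Figure D5:**
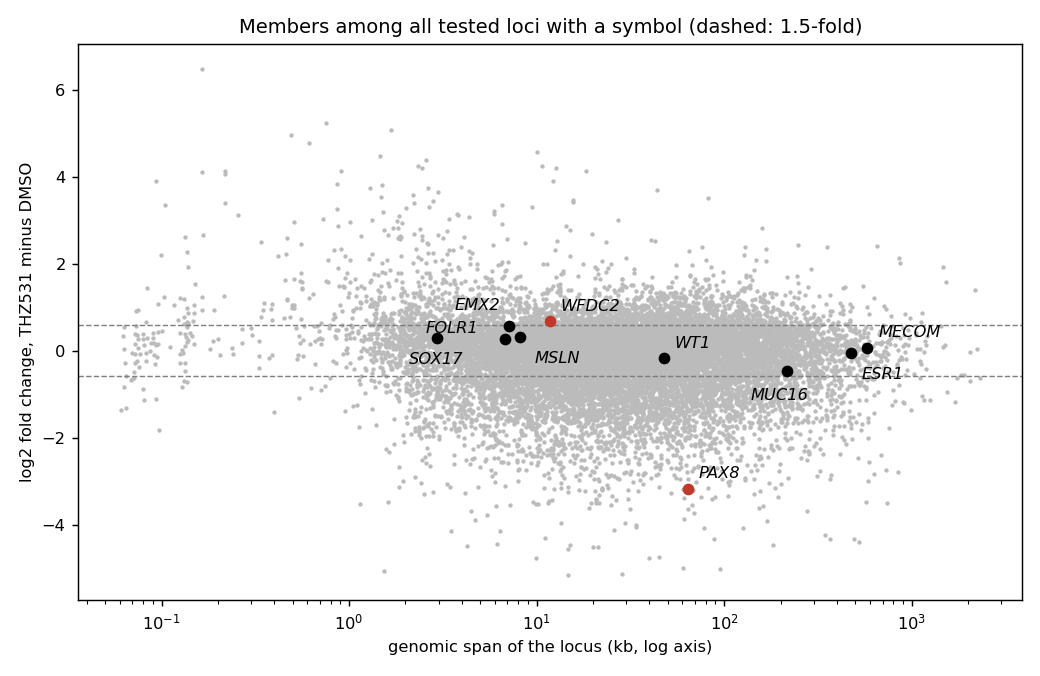
Log2 fold change (THZ531 minus DMSO) of every tested locus with a symbol (grey) against its genomic span in kb (log axis), with the called members PAX8 and WFDC2 in red, the other members in black and dashed lines at 1.5-fold. PAX8 lies at -3.18 below most genes of like span, while the longest members, MECOM and ESR1, lie near 0.

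Other transcription factors of the serous and Müllerian lineage, 27 by name, were read from the same fit. They were listed with earlier results of these data known. Of the 22 tested, 3 were called lower and 11 higher, with a median log2 fold change of 0.58, against 23.9% lower, 15.7% higher and a median of -0.01 over all loci. Among those called higher, the HOXA10 locus overlaps that of HOXA9 and contains that of HOXA11, so these calls may share reads. KLF5 was called at the threshold, with a log2 fold change of 0.585 and a ratio of the means of 1.497. PAX2, the close paralog of PAX8, fell by 1.86, from 85.6 ± 11.3 to 23.2 ± 5.41 normalized reads (SD, n = 3, adjusted p = 3.6e-05 in limma). BHLHE41, a basic helix-loop-helix repressor, fell by 1.30. GATA6 (1.89), the nuclear receptor NR2F2 (1.19) and the ETS factor EHF (1.11) rose the most. The count of higher genes depended on the scaling, with 3 lower and 5 higher at the same total (9.38% of all loci were higher) and 5 lower and 3 higher under RPL34 (6.14%). The median moved with all loci, to 0.33 where that of all loci was -0.25 and to 0.08 where it was -0.50.

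Of 10 genes listed as partners or targets of PAX8, 8 were tested, 2 were called lower and 2 higher, with a median of -0.32. Over all loci 23.9% were called lower and 15.7% higher, with a median of -0.01. Whether the fall of PAX8 bears on these genes was not tested. FGF18, a growth factor, fell by 0.69, and FOXE1, a forkhead factor of the thyroid with a mean of 31.9 normalized reads in DMSO, fell by 1.46. The locus of NKX2-1, the partner of PAX8 in the thyroid, rose by 1.22 but also covers SFTA3, so its reads cannot be assigned to either gene. CDH16, a kidney and thyroid cadherin, rose by 1.20 from a mean of 9.15. In DMSO only replicate 2 reached 10, so CDH16 entered the test through its THZ531 values (22.7, 20.5 and 20.5). FOXE1 would likewise have fallen short of the minimum on its THZ531 values alone. These 2 calls thus depend on the minimum and lend no weight to the counts. FOXE1 and CDH16 were named because the counts are small, after their values were seen. Thyroglobulin (TG) was below the minimum.

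Of 36 other surface, secreted and epithelial markers of serous carcinoma, 35 were tested, 3 were called lower and 1 higher, with a median of 0.27, against 23.9% and 15.7% of all loci and their median of -0.01. CDH6, a cadherin shared with the kidney, fell from 32275 ± 370 to 14091 ± 545 normalized reads (SD, n = 3), by 1.20 on the log2 scale (adjusted p = 2.4e-13, limma). VTCN1, the immune checkpoint ligand B7-H4, fell by 1.12. The third gene called lower, OVGP1, the oviductal glycoprotein, was weak and its groups overlapped, at 23.0, 11.1 and 23.1 normalized reads in DMSO and 5.04, 13.6 and 4.55 in THZ531. Its log2 fold change of -1.28 had an adjusted p of 0.057 (limma), and it was named after its values were seen. OVGP1 reached the minimum only with its DMSO values. CLDN4, a tight junction claudin, rose by 1.31. At the same total 4 were called lower and 1 higher, and under RPL34 7 and 1.

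The labelled cell type was checked against its markers. All 6 epithelial markers were tested and none was called, with summed values of 485729 to 499184 normalized reads in DMSO and 624774 to 639794 in THZ531. They are also among the 36 markers of the list above, so this is not a separate result. As deposited, all 6 were higher in THZ531 with no overlap between groups, where 71.7% of all loci had none. KRT8 lay just below the fold of 1.5, with a ratio of 1.499 and a log2 fold change of 0.58. Of 6 leukocyte markers 3 were tested and none was called, the sums were 528 to 598 and 519 to 598, and CD3E had no reads. Of 5 mesothelial markers, a cell type that shares MSLN and WT1, 4 were tested and none was called, with sums of 827 to 867 and 937 to 1027. Of 5 endothelial markers 2 were called higher (VWF and KDR) and TEK lower, the last with overlapping groups and named after its values were seen, with sums of 286 to 319 and 324 to 436. Of 6 fibroblast markers 3 were tested and 2 were called higher, COL1A1 (1.14) and COL3A1 (0.60), with sums of 1659 to 1914 and 3176 to 3517, while DCN and LUM had 4 reads or fewer in every library. Of 5 colon markers 1 was tested and not called, and the sums were 24.1 to 36.7 and 15.1 to 18.2. Over all loci 23.9% were called lower and 15.7% higher. At the same total 1 fibroblast marker and 0 endothelial markers were called higher, against 9.38% of all loci. The part of the marker shifts in the members' values was not tested.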

How the data were processed

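PolyA plus stranded libraries of OVCAR3 (3 DMSO, 3 THZ531) were sequenced by the authors, mapped to hg38 with STAR (version 2.7.5a in the submitters' processing notes), counted with featureCounts on FAST DB genes and normalized with DESeq2. The deposited values are a signal, namely reads per gene after the authors' division by the size factor of each library, with no correction for gene length. In every library 100% of the values were whole reads (tolerance 0.01 read), so the counts were recovered. No column was left out.

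Log2(value + 1) was compared with limma 3.58.1 (trended variance, no covariates) in R 4.3.3, on loci that reached 10 in 3 or more libraries. On the recovered reads, edgeR 4.0.16 called 4164 loci lower and 2721 higher, and DESeq2 1.42.0 called 4109 and 2679, against 4197 and 2751 in limma. Both called PAX8 and WFDC2 alone among the members. The scripts were tested on simulated data. Exonic lengths came from GENCODE 44, promoters from RefSeq and motifs from hg38. Other settings were pseudocounts of 0.1 and 10, no minimum and a minimum of 50, 4 other scalings (same total, upper quartile, RPL34, TMM), the replicate block, limma without a trend, the adjusted p, a fold of 2 and each library left out.

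The members and lists were chosen with earlier results of these data known. Besides the members and the loci that overlap them, the text names up to 3 called genes per list and direction (mean of at least 50, no overlap), the expressed neighbors of called members and the 3 genes nearest to PAX8 in pattern (mean of at least 100). FOXE1, CDH16, OVGP1, TEK, HOXA9, HOXA10, HOXA11 and KLF5 fall outside this rule and were named after their values were seen. Some genes of the lists are not reported here by name. The libraries of a group differed by more than sampling noise (mean chi-square per locus of 4.48 to 23.8). Same-numbered libraries did not deviate together.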

Additional observations from a re-analysis of the deposited data

How the results depend on the processing

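Scaled to the same total, 2 members were called lower (PAX8 and MUC16) and 0 higher, 1647 loci were called higher, and MECOM (-0.18) and PAX8-AS1 (-0.11) turned negative. Scaled to RPL34, 3 members were called lower (with WT1) and 0 higher, 7524 loci lower and 1078 higher, and SOX17 (-0.21), MECOM (-0.43), MSLN (-0.18), FOLR1 (-0.21) and PAX8-AS1 (-0.35) turned negative. The share of lower among all calls was 60.4% as deposited, 77.3% at the same total and 87.5% under RPL34. The shift is built into these scalings. At a fold of 2, 0 members were called higher, with 2689 loci lower and 1353 higher. With 1 library left out, 1 member was called lower each time and 0 to 2 higher, with 3775 to 4159 loci lower and 2327 to 2743 higher. EMX2 was added without DMSO replicate 2 and WFDC2 lost without DMSO replicate 3, and the cause was not tested. The values of ESR1 (-0.20 to 0.14), MECOM (-2.7e-04 to 0.11) and PAX8-AS1 (-0.093 to 0.30) changed sign. ESR1 was at 0.07 without THZ531 replicate 2. With the replicate number as a block, 1 member was called lower and 1 higher, as without it. Deviations of same-numbered libraries correlated at -0.039 to 0.019, so the numbers were not taken to pair the samples, and the block changed no member's call. Pseudocounts, minimums, limma without a trend, the adjusted p, upper quartile and TMM scaling, edgeR and DESeq2 left the called members at PAX8 and WFDC2. Counts of 41 to 83 reads limit ESR1, PAX8-AS1 had 18 to 32, and the smallest p of a ratio test was 0.1.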
